A study of Mus musculus with 18 samples.

Results

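The nuclear-encoded genes of the mitochondrial respiratory chain were examined in the livers of 18 mice. Genes were taken by symbol, as those beginning with Nduf, Uqcr or Atp5, those beginning with Cox, a digit from 4 to 8 and then a, b or c, and Sdha, Sdhb, Sdhc and Sdhd. Pseudogene symbols ending in -ps and a number were left out, as were genes with a mean below 0.5 RPKM (reads per kilobase of transcript, scaled to the mapped reads of the library). This left 88 of the 25266 genes in the tables, which by symbol comprised 40 complex I genes, 8 complex I assembly factors, 4 genes of complex II, 8 of complex III, 11 of complex IV and 17 of complex V. The 5 genes that matched by symbol and fell under the limit were Cox6a2, Cox6b2, Cox7b2, Cox8b and Cox8c, and Cox8c was listed at 0 in every mouse. The other 2 symbols left out were Ndufs5-ps and Cox7c-ps1.

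All mice were C57BL/6 males carrying floxed alleles of Ppp6r3, the gene for the SAPS3 subunit of protein phosphatase 6. Mice with the floxed alleles alone are called FF, and LKO mice are FF mice bred with Alb-Cre mice, in which Cre is driven in hepatocytes, so that the other cell types of an LKO liver keep the gene. Diets began at 8 weeks of age and lasted 16 weeks. Fat supplied 10 kcal% of the control diet (CD) and 32.5 kcal% of the high-fat diet (HFD), giving 4 FF CD, 4 LKO CD, 5 FF HFD and 5 LKO HFD mice, each measured once by RNA-seq. In such bulk samples, fewer cells of a type and less RNA per cell cannot be told apart.

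The respiratory chain passes electrons from NADH (at complex I) and from succinate (at complex II) through ubiquinone to complex III, cytochrome c and complex IV, where oxygen is reduced. Complexes I, III and IV pump protons across the inner mitochondrial membrane, and complex V, the ATP synthase, uses the gradient to make ATP. In the liver the chain takes up the electrons released by fatty acid oxidation and the tricarboxylic acid cycle and supplies the ATP for gluconeogenesis and urea synthesis. A few subunits of complexes I, III, IV and V are encoded by mitochondrial DNA, but 0 of the 13 such genes were present in the tables, so only the nuclear side of each complex is described.

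Read depth was estimated from the smallest steps between RPKM values at 23408000 to 36953500 reads per liver. Ppp6r3 was at 9.34 ± 1.14 RPKM in FF CD and 3.99 ± 0.0822 in LKO CD (SD, n = 4 each), and at 8.23 ± 0.467 in FF HFD and 4.60 ± 0.271 in LKO HFD (SD, n = 5 each). The fall had a limma adjusted p of 6.72e-07 on CD and 7.14e-06 on HFD. Summed levels of 8 hepatocyte markers ranged from 31698 to 39780.1 RPKM in FF CD, 38668 to 49219 in LKO CD, 34900 to 44248 in FF HFD and 37343 to 44471 in LKO HFD. All 6 sinusoidal endothelial markers were detected, with summed levels of 13.6 to 29.6 RPKM in FF CD, 10.9 to 31.7 in LKO CD, 37.0 to 60.2 in FF HFD and 28.3 to 39.5 in LKO HFD. The 7 macrophage markers summed to 45.3 to 64.7, 39.5 to 63.2, 55.3 to 112 and 54.9 to 107 RPKM in the same order. Over all mice, stellate cell markers summed to 51.6 to 115 RPKM, cholangiocyte markers to 15.3 to 65.9, lymphocyte markers to 1.30 to 4.37 and erythroid markers to 71.8 to 599.5, and no marker was at 0 in every mouse. The part of these differences in cell markers in the results on respiratory chain genes was not tested.

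The median gene was at 53.3 RPKM in complex I, 105 in complex II, 106 in complex III, 149 in complex IV and 140 in complex V, whereas the median complex I assembly factor was at 6.05 RPKM. The highest member was Atp5b, the catalytic beta subunit of ATP synthase, at a mean of 426 RPKM over the 18 mice. In complex I the highest was Ndufa4, at 324 RPKM, whose product is now often counted with complex IV, and the lowest was its paralogue Ndufa4l2, a gene induced by hypoxia, at 0.824 RPKM. The 4 subunits of succinate dehydrogenase (complex II) lay close together, from 96.6 RPKM for Sdhc, a membrane anchor, to 144 for Sdha, the flavoprotein that binds succinate. In complex III the range was 66.5 RPKM for Uqcrq to 209 for Uqcrh, both small accessory subunits. In complex IV, Cox7a1 at 2.08 RPKM stood far below the rest, which reached 267 for Cox6c. Together the 88 genes made up 1.83% to 2.71% of the summed RPKM of a liver.

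**Figure D1:**
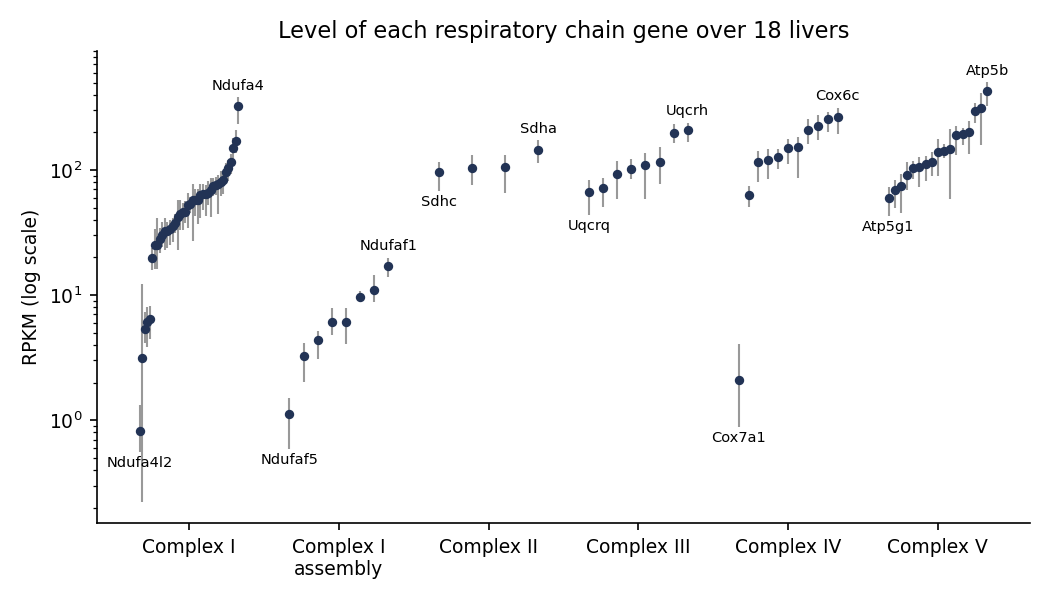
Mean RPKM over the 18 livers of each of the 88 respiratory chain genes (points, log scale), ordered within each complex, with lines from the lowest to the highest mouse and the lowest and highest gene of each complex named. The complex I assembly factors sit between 1.11 and 17.0 RPKM, below nearly all structural subunits, and Cox7a1 (2.08 RPKM) stands apart from the other complex IV genes.

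Several families of paralogues were split sharply by level. The 3 genes for the c subunit of ATP synthase, which encode the same mature protein behind different import sequences, were at 59.4 RPKM for Atp5g1, 69.5 for Atp5g2 and 313 for Atp5g3. Among complex IV isoforms, Cox6a1 was at 227 RPKM and Cox6b1 at 258, whereas their tissue-restricted counterparts Cox6a2 (heart and muscle) and Cox6b2 (testis) averaged 0.0292 and 0.149 RPKM. Cox8a was at 120.2 RPKM and the muscle form Cox8b at 0.0324. Of the Cox7a group, Cox7a2 was at 115 RPKM and Cox7a2l, whose product takes part in joining complexes III and IV into supercomplexes, at 63.5. Some members are hard to tell from near copies. GENCODE annotates 2 of them, Ndufa11b (chr16:22053510-22053933, plus strand, mm10) and Ndufb4c (chr15:73809507-73809896, minus strand), as processed pseudogenes, and the other 83 members with a single annotated gene are protein-coding. Ndufs5 averaged 6.44 RPKM while the excluded Ndufs5-ps had group means of 34.1 to 41.6, so reads may be divided between near-identical copies.

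The clearest pattern was between mice of the same group. In each group the mouse with the lowest mean level lay below its group mean for most of the 88 genes. That mouse was picked by the mean of the same 88 genes, so a majority below the group mean was favoured in advance. These were 70 genes in FF CD mouse 4, 79 in LKO CD mouse 3, 83 in FF HFD mouse 3 and 85 in LKO HFD mouse 4. FF HFD mouse 4 and LKO HFD mouse 3 were also below the mean for most genes (59 and 48). In the lowest mouse of each group, in the same order, 40.2%, 26.4%, 29.8% and 43.3% of all 11090 tested genes lay above the group mean. A majority of other genes was thus low in these lowest mice as well. LKO HFD mouse 5 differed from them, with 22.3% of all genes but 50 of the 88 above the mean. The summed RPKM was the lowest of its group in FF CD mouse 4 (338566), LKO CD mouse 3 (344503) and FF HFD mouse 3 (312292), and in LKO HFD mouse 4 (356644) it was the second lowest after mouse 5 (349479). In LKO HFD mouse 4 the 10 highest genes took 27.4% of the summed RPKM, against 20.7% to 25.6% in the other 17 livers. The part of these library differences in the pattern was not tested.

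**Figure D2:**
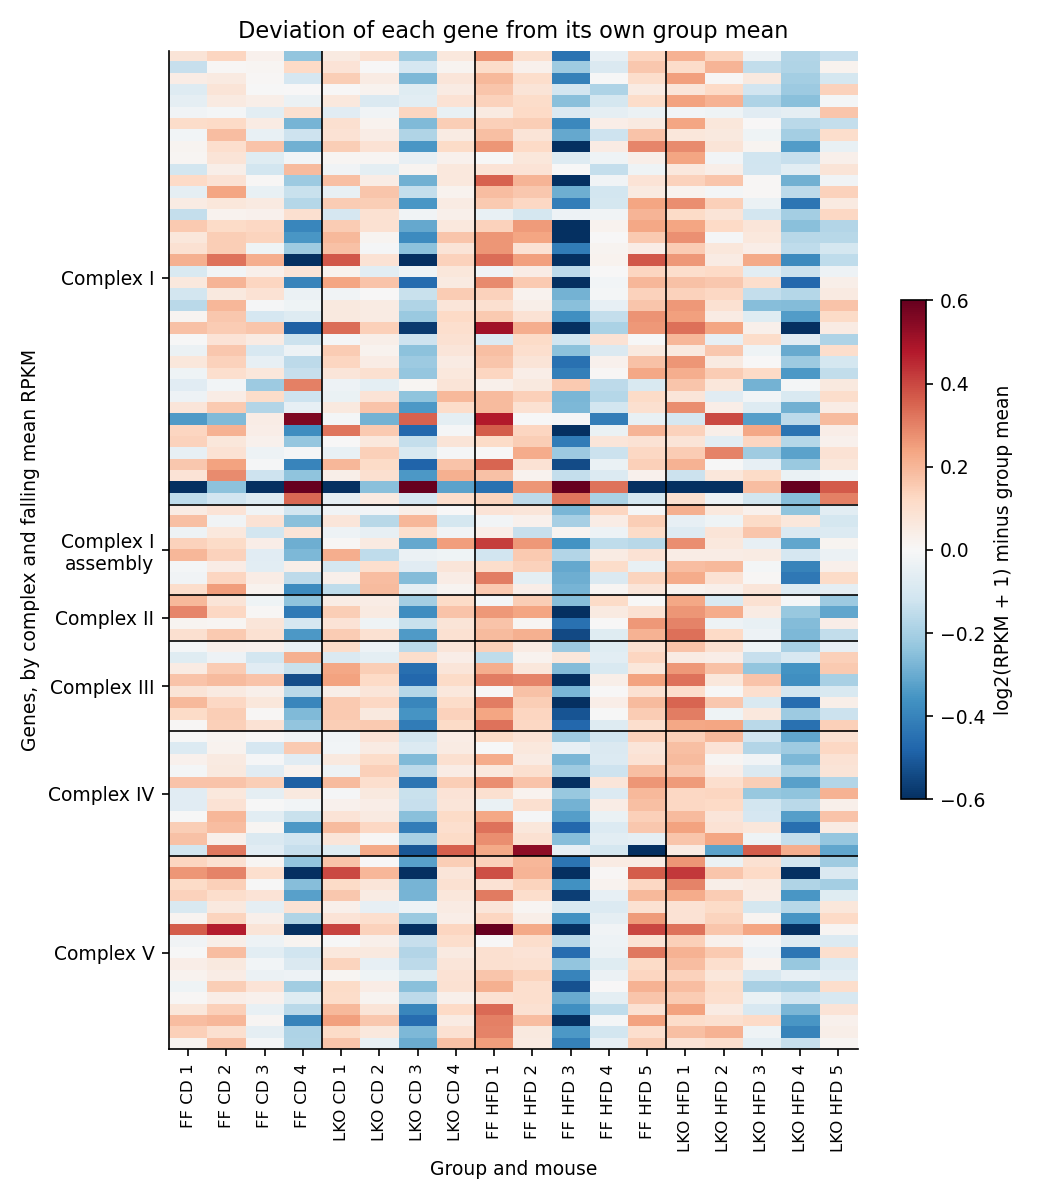
Deviation of each respiratory chain gene (from top to bottom, by complex and falling level) from the mean of its own group in each of the 18 livers (columns), as log2(RPKM + 1), with colours limited to 0.6 on either side of 0. The bluest column of each group is FF CD mouse 4, LKO CD mouse 3, FF HFD mouse 3 and LKO HFD mouse 4, in which 70, 79, 83 and 85 of the 88 genes were below the group mean.

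Of the variation of log2(RPKM + 1) over the 18 mice, 84.3% lay within groups for the respiratory chain, compared with 54.7% for all tested genes, 67.3% for 86 cytosolic ribosomal proteins and 36.6% for 20 fatty acid oxidation genes. Deviations from the group means were correlated between members, with a mean pairwise Pearson's r of 0.55 over the 18 mice, which share library and depth, against 0.12 for all tested genes, 0.56 for cytosolic ribosomal proteins and 0.64 for fatty acid oxidation genes. By mean r, coordination was closest among the subunits of complex V (0.81) and complex II (0.78) and loosest among the complex I assembly factors (0.33). By median r, complex III (0.84, mean 0.56) came between complex V (0.85) and complex II (0.80), and the assembly factors (0.37) stayed lowest. The assembly factors had a median level of 6.05 RPKM, and the part of low read numbers in their r was not tested. Uqcr10, a small subunit of complex III, followed the mean of the other members most closely (r 0.97).

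Atp5g3 shows the size of this spread. It was at 364, 372, 324 and 190 RPKM in FF CD mice 1 to 4, at 414, 362, 197 and 331 in LKO CD mice 1 to 4, at 405, 357, 159, 311 and 399 in FF HFD mice 1 to 5 and at 378, 316, 307, 183 and 265 in LKO HFD mice 1 to 5. The low mouse of each group was thus well under its companions, while the 4 group means, 313, 326, 326 and 290 RPKM, were close. Atp5e, the epsilon subunit of ATP synthase, and Uqcrfs1, the Rieske iron-sulfur protein of complex III, had the same low mouse in FF CD, LKO CD, FF HFD and LKO HFD. The pseudogene Ndufa11b moved the other way, with r of -0.83 to the mean of the other members. It was at 12.4 RPKM in FF CD mouse 4 against 1.25 to 2.26 in mice 1 to 3, at 8.02 in LKO CD mouse 3 against 0.802 to 1.78 in the others, at 7.11 in FF HFD mouse 3 against 0.221 to 3.14, and at 4.93 in LKO HFD mouse 4 against 0.681 to 2.94. Its highest mouse in every group was the one in which most other members were lowest, although its values rest on only 2 to 133 estimated reads per liver. It was chosen for this description after its values were seen.

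**Figure D3:**
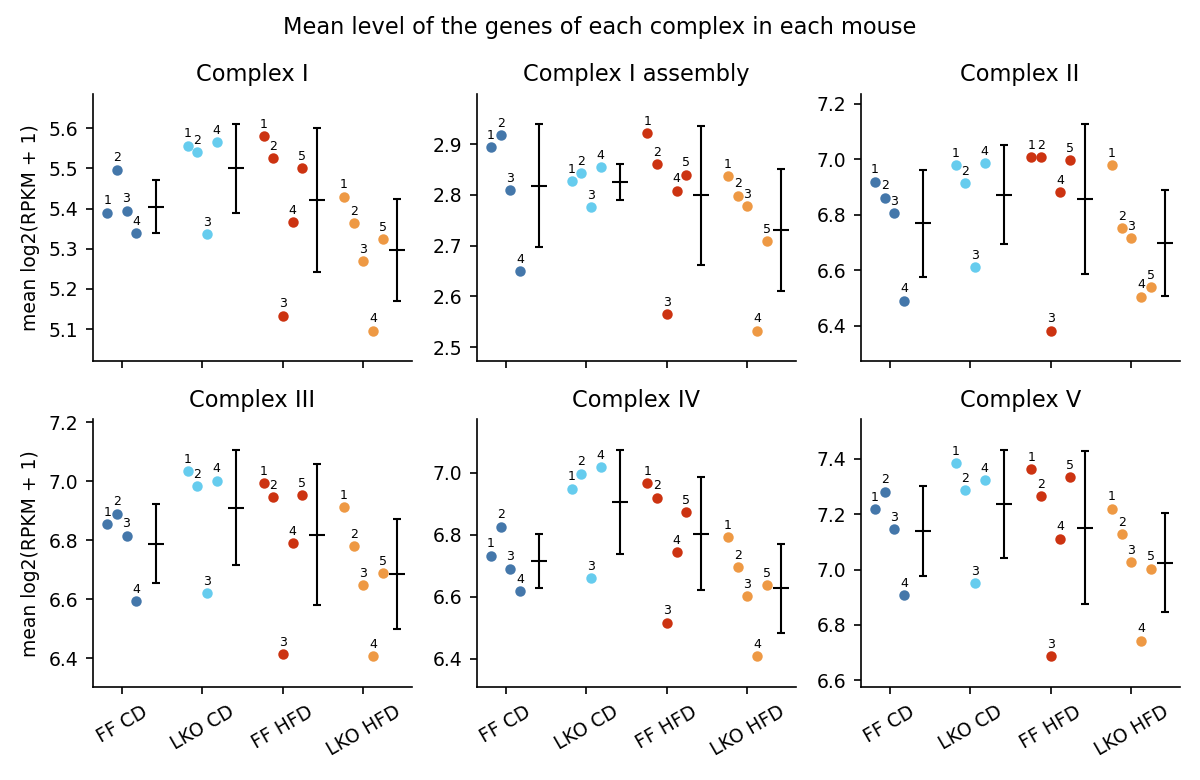
Mean log2(RPKM + 1) of the genes of each complex in each mouse (numbered points), with the group mean and SD (n = 4 for CD, n = 5 for HFD) beside them. Mouse 4 of FF CD, mouse 3 of LKO CD, mouse 3 of FF HFD and mouse 4 of LKO HFD are the lowest of their group in every complex.

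Averaged over all 88 genes, the log2 level was 5.86 ± 0.10 in FF CD and 5.96 ± 0.14 in LKO CD (SD, n = 4 each), and 5.88 ± 0.20 in FF HFD and 5.75 ± 0.14 in LKO HFD (SD, n = 5 each). The ranges of the 4 groups overlapped. In complex IV, where the medians differed most, the mean log2 level of a mouse ranged from 6.62 to 6.83 in FF CD, 6.66 to 7.02 in LKO CD, 6.52 to 6.97 in FF HFD and 6.41 to 6.79 in LKO HFD, and again the ranges overlapped.

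The response to the high-fat diet was compared first in FF mice, using limma on log2(RPKM + 1) over all 11090 genes with a mean of at least 0.5 RPKM, with all 4 groups in 1 fit. A gene was called at a Benjamini-Hochberg adjusted p under 0.05. On HFD, 1 of the 88 respiratory chain genes rose and 1 fell, whereas 15.8% of all tested genes rose and 4.79% fell. Neither passed a fold of 1.5, as 6.6% of all genes did. The members were close to balance, with 52 above 0 and 36 below and a median log2 fold change of 0.02, compared with 0.07 over all genes, and this balance depended on scaling, with 77 above 0 when every library was scaled to the same sum, 45 after quantile normalization and 23 after centring on the median gene. With the same-sum scaling 8 members were called higher and 0 lower, while 3429 of all 11090 genes were called. Without FF HFD mouse 3 the median was 0.12, and without FF CD mouse 4, FF HFD mouse 1 or FF HFD mouse 5 it was -0.01, -0.02 and -0.02. The medians by complex were 0.01 for complex I, 0.02 for the assembly factors, 0.08 for complex II, 0.03 for complex III, 0.09 for complex IV and 0.01 for complex V.

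The gene that rose was Ndufa10, an accessory subunit of complex I (chr1:92439010-92473860, minus strand, mm10). It was at 71.4, 74.7, 67.4 and 70.1 RPKM in the FF CD mice and at 83.2, 87.6, 78.9, 82.0 and 85.5 in the FF HFD mice. Every FF HFD mouse was above every FF CD mouse, including FF HFD mouse 3, in which most other members were low. The log2 fold change was 0.23 (SE 0.08), with a limma adjusted p of 0.0454 and an exact two-sided permutation p of 0.0159. In the LKO mice the order differed, with 78.6, 78.7, 75.2 and 79.4 RPKM on CD and 82.8, 69.2, 64.4, 63.5 and 71.6 on HFD, the first of which was above all LKO CD mice and the rest below. Ndufs1, the large iron-sulfur core subunit of complex I, was the other member with no overlap between diets in FF mice, at 32.2 to 37.5 RPKM on CD and 37.5 to 44.4 on HFD, where the highest CD mouse and the lowest HFD mouse nearly met, but was not called (log2 fold change 0.21, limma adjusted p = 0.106). Of all tested genes, 14% were higher without overlap on HFD in FF mice and 4.24% lower, against 2 and 0 of the 88.

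The gene that fell was Ndufaf4, which encodes an assembly factor of complex I (chr4:24898083-24905001, plus strand). It was at 14.5, 12.5, 13.6 and 10.5 RPKM in FF CD and at 10.1, 10.4, 8.73, 10.5 and 11.4 in FF HFD. The groups overlapped through FF CD mouse 4. The log2 fold change was -0.29 (SE 0.10), with a limma adjusted p of 0.0407 and an exact two-sided permutation p of 0.0476. In LKO mice the means were 11.2 RPKM on CD and 10.0 on HFD, with a log2 fold change of -0.13 that was not called. Both adjusted p-values lay near the threshold, and both folds kept their direction when single livers were left out. Without any 1 mouse the log2 fold change was 0.21 to 0.26 for Ndufa10 and -0.38 to -0.23 for Ndufaf4, but Ndufa10 was no longer called without any 1 of 12 of the 18 mice (all FF CD mice, LKO CD mice 1, 2 and 4, FF HFD mice 1, 2, 4 and 5 and LKO HFD mouse 2), and Ndufaf4 without any 1 of 7 (FF CD mice 1 to 3 and FF HFD mice 1 to 4). Over all 29 alternative settings the limma adjusted p ranged from 0.00459 to 0.279 for Ndufa10 and from 0.00501 to 0.131 for Ndufaf4.

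In LKO mice the diet difference was one-sided. On HFD, 85 of the 88 genes were lower than on CD, with a median log2 fold change of -0.20 when the median over all genes was 0.07, and 84, 86 and 88 were lower after same-sum scaling, quantile normalization and centring on the median gene. Of all tested genes 34.2% were lower. The direction was not particular to the chain, since 81 of 86 cytosolic ribosomal proteins were also lower (median -0.16). Of 78 mitochondrial ribosomal proteins 55 were lower (median -0.06). The complex medians were -0.19 for complex I, -0.10 for the assembly factors, -0.18 for complex II, -0.24 for complex III, -0.29 for complex IV and -0.18 for complex V. At the level of single genes most of this did not pass the test. Limma called 2 members lower and 0 higher, beside 0.604% of all tested genes called lower and 3.44% higher, and neither passed a fold of 1.5, as 1.27% of all genes did. At an unadjusted p under 0.05 there were 33 members, all lower (37.5%), while 4.19% of all genes were lower and 18.1% higher at that level. The count of calls moved with the setting, to 14 after centring on the median gene, 11 with a length trend removed and 0 when only the LKO groups were fitted. Over all tested genes, 276, 352 and 69 were called in these settings, against 449 in the main fit.

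Both genes called lower on HFD in LKO mice encode accessory subunits of complex I. Ndufa5 (chr6:24518666-24528013, minus strand) was at 67.7, 77.6, 71.7 and 74.2 RPKM in LKO CD and at 60.5, 59.0, 51.7, 48.3 and 60.8 in LKO HFD. All LKO HFD mice were below all LKO CD mice, and the log2 fold change was -0.38 (SE 0.09), with a limma adjusted p of 0.0315 and an exact two-sided permutation p of 0.0159. In FF mice Ndufa5 was at 57.5 to 67.9 RPKM on CD and 60.4 to 75.1 on HFD, which overlapped. Ndufa6 (chr15:82350140-82354322, minus strand), whose product binds the mitochondrial acyl carrier protein, was at 210, 199, 185 and 200 RPKM in LKO CD and 166, 177, 139, 136 and 156 in LKO HFD. These did not overlap either, and the log2 fold change was -0.36 (SE 0.10), with a limma adjusted p of 0.0499, just inside the threshold. Ndufa6 lay outside the rule for named genes and is described because it was called. Without any 1 mouse the log2 fold change was -0.41 to -0.32 for Ndufa5 and -0.41 to -0.31 for Ndufa6. The Ndufa5 call was nevertheless lost without any 1 of 6 mice (LKO CD mice 1 to 4 and LKO HFD mice 3 and 4) and the Ndufa6 call without any 1 of 15 (all CD mice, every FF HFD mouse but mouse 3, and mice 3 to 5 of LKO HFD). The limma adjusted p ranged over the alternatives from 0.0201 to 0.203 for Ndufa5 and from 0.0293 to 0.158 for Ndufa6.

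**Figure D4:**
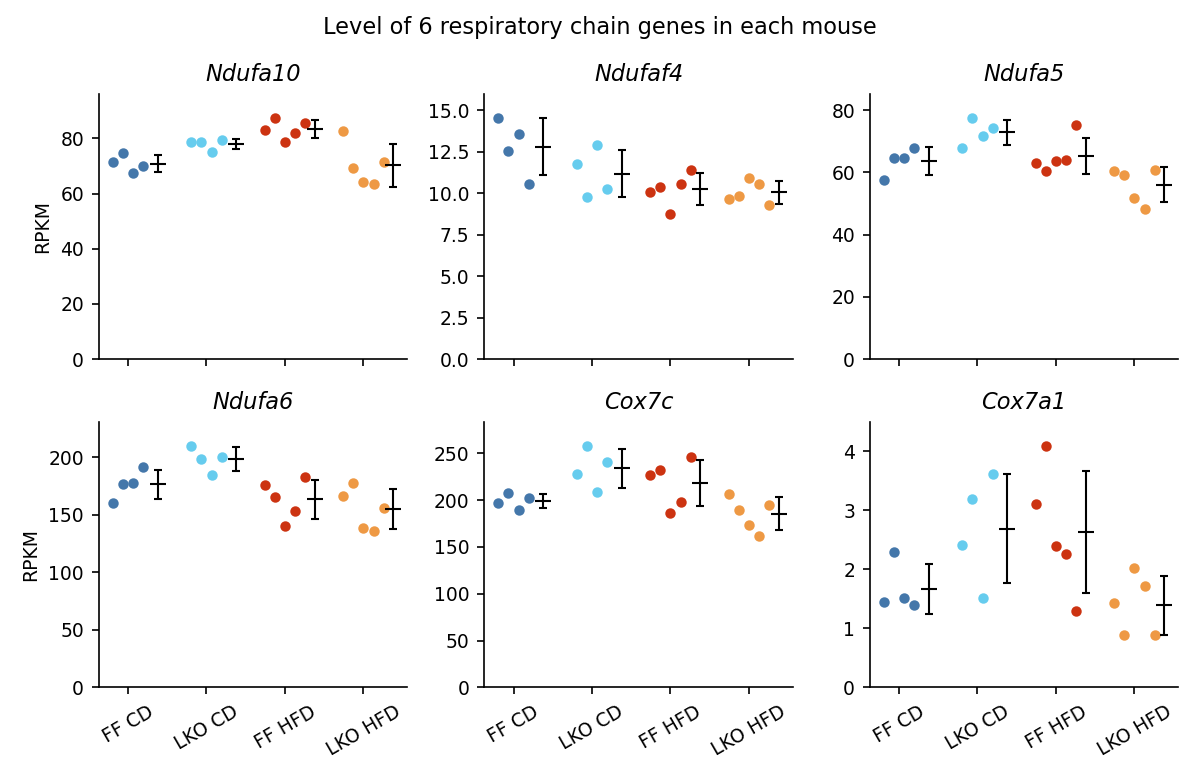
RPKM of Ndufa10, Ndufaf4, Ndufa5, Ndufa6, Cox7c and Cox7a1 in each mouse, by group, with the mean and SD beside the points (n = 4 for CD, n = 5 for HFD). Ndufa5, Ndufa6 and Cox7c are lower in all LKO HFD mice than in all LKO CD mice, and Ndufa10 is higher in all FF HFD than in all FF CD mice.

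A further 11 members were lower without overlap in LKO HFD than in LKO CD without being called, making 13 of 88 where 1.33% of all tested genes were lower and 7.71% higher without overlap. They came from all the complexes except complex II. In complex I they were Ndufa1, Ndufb4, Ndufs6, Ndufv2 and Ndufv3, with log2 fold changes of -0.30, -0.26, -0.28, -0.24 and -0.34. In complex IV, Cox7c, a small subunit of the oxidase, was at 228, 258, 209 and 241 RPKM in LKO CD and at 207, 190, 174, 162 and 195 in LKO HFD. That was a log2 fold change of -0.33 (SE 0.10) with a limma adjusted p of 0.0633. Cox7b in complex IV, Uqcrb in complex III, Atp5h and Atp5o in complex V and the assembly factor Ndufaf6 completed the list, at -0.29, -0.26, -0.25, -0.27 and -0.24 on the log2 scale. Among the catalytic and core subunits fixed as examples, the log2 fold changes were -0.23 for Cox5a, -0.06 for Atp5b, -0.04 for Sdha, -0.07 for Ndufs1, -0.13 for Ndufv1 and -0.11 for Uqcrfs1, none of which was called.

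The members are short genes, with a median longest transcript of 918 bases among the 85 with an annotated length, compared with 2956.5 bases for all tested genes. Across genes, which are not independent replicates, the log2 fold change in LKO mice rose with transcript length, with Spearman's rho of 0.41 over the members and 0.24 over all genes. The 43 shorter members had a median of -0.23 and the 42 longer ones of -0.15. With the length trend over all genes removed, 84 of 85 members were below 0 and the median was -0.20. For LKO against FF on CD, rho was -0.34 over the members and -0.22 over all genes. There, removal of the trend left 65 members higher and 20 lower (median 0.06). For HFD in FF mice it left 30 higher and 55 lower (median -0.02). For LKO against FF on HFD 79 members were then lower (median -0.11), and the interaction was below 0 for 78 (median -0.18).

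**Figure D5:**
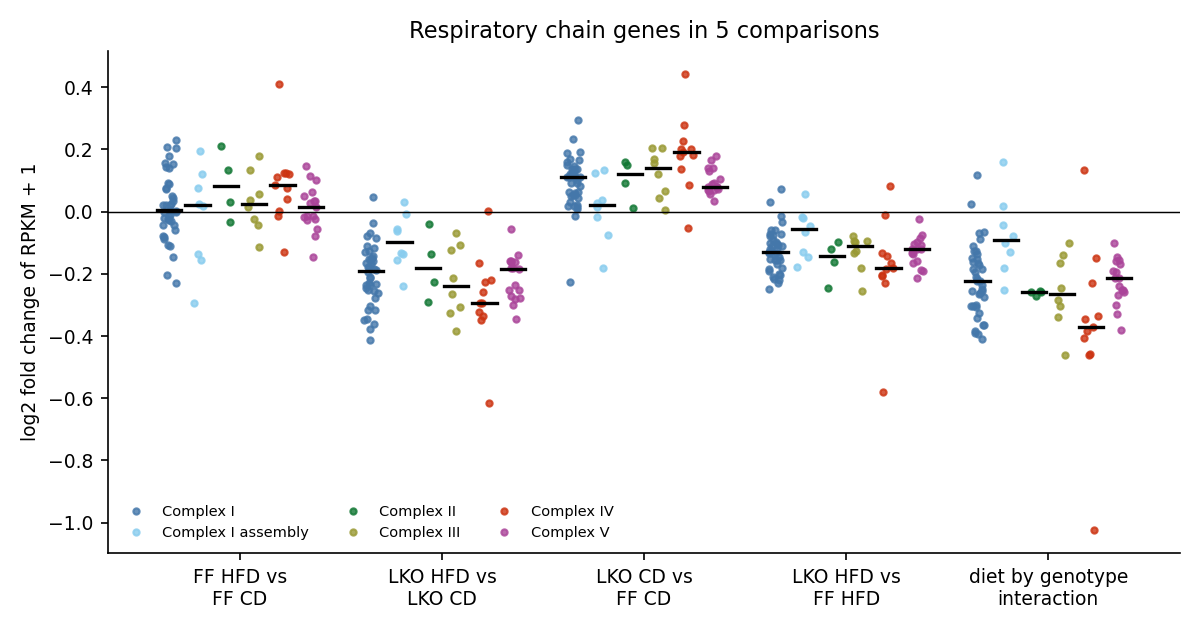
Log2 fold change of RPKM + 1 for each respiratory chain gene (points, coloured by complex) in the 4 comparisons of groups and in the interaction of diet with genotype, with the median of each complex as a bar. In LKO HFD vs LKO CD 85 of 88 genes are below 0 (84 to 88 under the 3 other scalings) and in LKO HFD vs FF HFD 84 are (82 to 85), while in FF HFD vs FF CD 52 are above 0 (23 to 77).

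Genotypes were then compared within each diet. These comparisons share samples with the diet comparisons and are not independent of them. On CD, 82 of the 88 genes were higher in LKO than in FF mice, by a median log2 fold change of 0.11 (0.03 over all genes), and 83, 66 and 72 were higher after same-sum scaling, quantile normalization and centring on the median gene. The direction was not particular to the chain, since all 20 fatty acid oxidation genes (median 0.33) and 70 of 78 mitochondrial ribosomal proteins (0.07) were also higher. Of 86 cytosolic ribosomal proteins 38 were higher and 48 lower. Limma called 0 members, with 2 at an unadjusted p under 0.05, beside 0.0902% of all tested genes called higher, 0.144% lower and 0.225% past a fold of 1.5 as well. The median was 0.05 without FF CD mouse 4 and 0.18 without LKO CD mouse 3. In 7 members the LKO CD mice were all above the FF CD mice, namely Ndufa3, Ndufa10, Ndufaf1, Cox5b, Cox6c, Cox7c and Atp5h, where 3.37% of all genes were higher and 1.7% lower without overlap. For Cox7c the FF CD mice were at 197, 207, 190 and 202 RPKM, so the lowest LKO CD mouse (209) was just above them, and the log2 fold change was 0.23 (limma adjusted p = 0.618).

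On HFD, 84 of the 88 genes were lower in LKO than in FF mice, and 85, 82 and 85 after same-sum scaling, quantile normalization and centring on the median gene. The median log2 fold change was -0.13, against 0.03 over all genes. Of 14 tricarboxylic acid cycle genes 13 were also lower (median -0.16), as were 16 of 20 fatty acid oxidation genes (-0.16). In the other direction, 83 of 86 cytosolic and 43 of 78 mitochondrial ribosomal proteins were higher. Limma called 0 members, while 2.1% of all tested genes were higher, 2.1% lower and 2.07% past a fold of 1.5 as well. At an unadjusted p under 0.05 there were 9 members, all lower (10.2%), while 8.1% of all genes were lower and 11.2% higher at that level. In no member were the groups free of overlap, where 2.65% of all genes were higher and 2.02% lower without overlap. The lowest adjusted p was that of Ndufa10, with a log2 fold change of -0.25 (SE 0.07, limma adjusted p = 0.0661). The overlap came through LKO HFD mouse 1, at 82.8 RPKM, while mice 2 to 5 were below all FF HFD mice. The median was -0.22 without FF HFD mouse 3, -0.07 without LKO HFD mouse 4 and -0.08 without FF HFD mouse 1.

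The difference between the diet responses of the 2 genotypes was tested as an interaction, which is negative where the diet response was lower in LKO than in FF mice. It was below 0 for 83 of the 88 genes, with a median of -0.24 when the median over all genes was -0.01, and for 85, 82 and 83 genes after same-sum scaling, quantile normalization and centring on the median gene. All 20 fatty acid oxidation genes were below 0 as well (median -0.48), whereas 78 of 86 cytosolic ribosomal proteins were above 0. Limma called 0 members, with 19 at an unadjusted p under 0.05, all below 0 (21.6%), while 9.4% of all genes were below 0 and 7.1% above at that level. Of all tested genes 1.14% were called above 0, 1.83% below 0 and 2.44% with a fold above 1.5 as well. The count of members called was 7 after same-sum scaling and 4 after quantile normalization, while 554 and 488 of all tested genes were called.

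The interaction was widest in complex IV, the cytochrome c oxidase, with a median of -0.37 and 8 of 11 genes at an unadjusted p under 0.05. The medians of the others were -0.22 for complex I, -0.09 for the assembly factors, -0.26 for complex II, -0.27 for complex III and -0.21 for complex V, and the differences between complexes were not tested. The complex IV genes concerned were Cox5b, Cox6a1, Cox6b1, Cox6c, Cox7a1, Cox7b, Cox7c and Cox8a. For Cox7c the FF HFD mice were at 227, 232, 186, 198 and 246 RPKM, with 3 of 5 above all FF CD mice, whereas all LKO HFD mice were below all LKO CD mice, and the interaction was -0.46 (SE 0.14, limma adjusted p = 0.0927). Cox8a had the same interaction of -0.46 (SE 0.18, limma adjusted p = 0.203). Cox7a2l was the only gene of complex IV above 0 (0.13, SE 0.17). In complex I the lowest adjusted p was 0.0735, for Ndufa10 (interaction -0.38, SE 0.11). In complex II the 4 subunits gave nearly the same value, from -0.27 for Sdhc to -0.25 for Sdha, with SEs of 0.16 to 0.27.

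Cox7a1, the isoform of subunit VIIa typical of heart, skeletal muscle and brown fat, had the largest differences among the members, none of them called. It was at 1.45, 2.29, 1.52 and 1.40 RPKM in FF CD and at 2.41, 3.20, 1.52 and 3.61 in LKO CD. On HFD it was at 3.11, 4.09, 2.39, 2.26 and 1.30 in FF mice and at 1.43, 0.879, 2.02, 1.73 and 0.893 in LKO mice. Hence LKO CD and FF HFD were the higher groups and FF CD and LKO HFD the lower, with overlap in each comparison. The log2 fold change was 0.41 for HFD in FF mice, -0.61 for HFD in LKO mice, 0.44 for LKO on CD and -0.58 for LKO on HFD, and the interaction was -1.02 (SE 0.30, limma adjusted p = 0.0733). Its values rest on 11 to 56 estimated reads per liver.

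Markers of other tissues that use this isoform were also examined, and their part in the Cox7a1 values was not tested. All 5 skeletal muscle markers were highest in LKO HFD mouse 2, with Ckm at 0.284 RPKM, Acta1 at 0.696, Myh4 at 0.139, Tnnt3 at 1.04 and Mylpf at 1.095, a mouse in which Cox7a1 was at 0.879, the lowest of all 18. The summed muscle markers ranged from 0.382 to 0.540 RPKM in FF CD, 0.447 to 0.987 in LKO CD, 0.228 to 0.762 in FF HFD and 0.440 to 3.26 in LKO HFD. The 5 fat markers summed to at most 0.0686 RPKM in FF CD and 0.122 in LKO CD, and to 0.975 to 19.4 in FF HFD and 0.0509 to 7.57 in LKO HFD. Most of the higher sums was Cidea, a lipid droplet gene, at 0.953 to 19.4 RPKM in FF HFD and 0 to 7.57 in LKO HFD, while Adipoq reached 0.760 at most. Ucp1, the defining gene of brown fat, was listed at 0 in all but 1 mouse, LKO HFD mouse 5, at 0.0497 RPKM.

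The promoters of these genes are shown because nuclear respiratory factor 1 (NRF1), GABP of the ETS family, YY1 and the oestrogen-related receptors are known regulators of respiratory chain genes. The part of these regulators in the shared movement of the members between mice was not tested. RefSeq promoter windows (GRCm38.p6, 250 bases before to 50 after the start) were found for 73 members. The NRF1 core TGCGCA, which reads the same on both strands, was present in 19 of the 73 (26%), against 16.1% of 8864 tested genes and 8.79% of all 27025 windows. The ETS motif CCGGAAG was in 19 (26%, against 20.8% and 9.93%), the YY1 motif AAGATGGC in 11 (15.1%, against 5.48% and 3.19%) and the oestrogen-related receptor motif AAGGTCA in 8 (11%, against 4.28% and 5.38%), each searched on both strands. The ETS and YY1 motifs can overlap in the letters AAG, and a match is a description of the sequence only.

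The following sequences lie before the start of Ndufaf4, Ndufa6 and Ndufa10, which were called, and of Cox7a1, which had the widest differences. No sequence is printed for Ndufa5, which was also called. Bases inside annotated exons are left out, so that the printed part ends 31 bases before the start for Ndufa6, 102 for Ndufa10 and 27 for Cox7a1. Capitals mark the NRF1 core. Ndufaf4 (chr4:24897833-24898082, plus strand) has it ending 109 bases before the start and Ndufa6 (chr15:82354323-82354541, minus strand) 75 bases before, while Ndufa10 (chr1:92473861-92474008, minus strand) and Cox7a1 (chr7:30183921-30184143, plus strand) hold none of the 4 motifs. Ndufaf4 and Ndufa6 each have a further copy over or past the start, outside the printed part.
Ndufaf4: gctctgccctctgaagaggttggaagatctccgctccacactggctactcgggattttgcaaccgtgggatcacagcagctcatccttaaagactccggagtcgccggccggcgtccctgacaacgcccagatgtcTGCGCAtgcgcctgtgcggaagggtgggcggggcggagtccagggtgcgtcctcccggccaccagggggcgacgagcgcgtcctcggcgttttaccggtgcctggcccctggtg
Ndufa6: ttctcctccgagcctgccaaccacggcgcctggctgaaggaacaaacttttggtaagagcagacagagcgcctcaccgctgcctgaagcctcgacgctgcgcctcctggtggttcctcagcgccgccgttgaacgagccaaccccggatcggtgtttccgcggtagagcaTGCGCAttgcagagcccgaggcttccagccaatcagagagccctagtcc
Ndufa10: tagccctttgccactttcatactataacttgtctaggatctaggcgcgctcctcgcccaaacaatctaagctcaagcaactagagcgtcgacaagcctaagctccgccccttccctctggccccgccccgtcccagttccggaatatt
Cox7a1: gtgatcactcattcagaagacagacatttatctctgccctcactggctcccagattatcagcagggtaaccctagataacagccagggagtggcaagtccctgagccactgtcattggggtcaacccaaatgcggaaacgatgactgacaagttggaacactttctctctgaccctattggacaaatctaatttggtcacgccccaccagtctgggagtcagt

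Ndufaf4 and Ndufa6, which share the core, were called in different comparisons, Ndufaf4 for diet in FF mice and Ndufa6 for diet in LKO mice. By complex, the core was found in 10 of 33 windows of complex I, 1 of 7 of its assembly factors, 2 of 3 of complex II, 1 of 5 of complex III, 2 of 10 of complex IV and 3 of 15 of complex V.

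Other genes around the chain gave a context for these values. Of 5 tested subunits not reached by the symbol rule, Cox4i1, the regulatory subunit IV of the oxidase, was at 294 RPKM and had log2 fold changes of 0.04 for HFD in FF mice and -0.25 in LKO mice. Atpif1, the inhibitor of ATP synthase, was the only one called, higher on HFD in FF mice (log2 fold change 0.41, limma adjusted p = 0.0261). Cycs, cytochrome c, was not called in any comparison. Of 31 assembly factors of complexes II to V, 1 rose on HFD in FF mice, Cox19, a copper-handling factor of complex IV (0.46, limma adjusted p = 0.0416), and 0 were called in LKO mice, where 2 had an unadjusted p under 0.05. Of all tested genes, 15.8% rose on HFD in FF mice.

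Among 15 regulators of mitochondrial biogenesis, 0 were called for diet in FF mice, with 2 at an unadjusted p under 0.05. In LKO mice 1 fell on HFD, Ppargc1a, the coactivator PGC-1 alpha (log2 fold change -0.46, limma adjusted p = 0.0278), where 0.604% of all tested genes fell. Gabpb1, a subunit of GABP, was the 1 regulator called on HFD between genotypes, and was higher in LKO mice (0.32, limma adjusted p = 0.0249), where 2.1% of all tested genes were higher. Nrf1, Tfam and Esrra were called in none of the 5 comparisons.

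Among the pathways that feed electrons to the chain, fatty acid oxidation had the most called genes on HFD in FF mice. Of its 20 genes, 14 rose and 0 fell, with a median log2 fold change of 0.69, in contrast to the 0.02 of the respiratory chain. Of all tested genes, 15.8% rose and 4.79% fell on HFD in FF mice, and 3.44% rose in LKO mice. The interaction was called below 0 for 1.83% of all tested genes. In LKO mice 1 of the 20 fatty acid oxidation genes rose and the median was 0.13, and the interaction was called below 0 for 6 of the 20, with a median of -0.48. Of 14 tricarboxylic acid cycle genes, 4 rose and 1 fell in FF mice, with Idh2 at 0.77, and the interaction was called below 0 for 3, including Idh2 at -0.91 (limma adjusted p = 0.0361). Of 10 mitochondrial carriers and electron donors to ubiquinone, 2 rose in FF mice, the carrier Ucp2 and the donor Etfdh, a share near the 15.8% of all tested genes. Etfdh, which passes electrons from fatty acid oxidation to ubiquinone, rose in FF mice by a log2 fold change of 0.66 (limma adjusted p = 0.000747). Of 78 mitochondrial ribosomal proteins, 1 rose and 0 fell in FF mice, with a median of -0.00132, and of 86 cytosolic ones 0 rose and 31 fell, with a median of -0.34.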

How the data were processed

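RNA from the liver of 18 mice was sequenced, and 1 table per mouse was deposited. The RPKM values were made by the authors, who aligned reads to mm10 with HISAT2 2.0.4 and quantified genes with Partek. The annotation, strandedness and treatment of reads with several matches are not given in the sources used here. The labels name a small RNA library kit beside a standard RNA-seq protocol. RPKM is not a count, so no count test was run, and depth (23408000 to 36953500 reads) was estimated from the value of 1 read in low genes.

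Groups came from the labels. Genes with a mean of at least 0.5 RPKM (11090) were fitted with limma 3.58.1 in R 4.3.3 on log2(RPKM + 1), all 4 groups in 1 fit with a variance trend, with Benjamini-Hochberg adjustment over all of them. Fold changes are on this scale, which understates the change of low genes. Single members were also compared by an exact two-sided permutation test of mean RPKM, whose smallest p is 0.0286 for 4 against 4 mice and 0.00794 otherwise. Levels, motifs and figures were computed with Python 3.11.15. Transcript lengths and gene positions came from GENCODE on GRCm38 and promoters from RefSeq on GRCm38.p6. On simulated data for FF HFD vs FF CD over 11090 genes, 97% of 100 genes changed by 1 on the log2 scale were called and 13% of those changed by 0.3, and 6.78% of calls were false. The simulated noise was independent between genes, unlike the shared deviations of mice in these data, so the false share may not carry over to them.

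The genes, lists and tests were chosen with earlier results of these data known. Named members were, per complex and for the assembly factors, the 3 lowest p in FF HFD vs FF CD and in LKO HFD vs FF HFD, any called with a fold above 1.5, 1 or 2 core subunits per complex, groups of paralogues, and the highest and lowest level. Cox5b, Cox7b, Ndufa1, Ndufa3, Ndufa6, Ndufs5, Ndufs6, Ndufv2, Ndufv3, Atp5e, Atp5o, Ndufa11b and Ndufb4c lie outside this rule and were described after their values were seen.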

Additional observations from a re-analysis of the deposited data

Results flagged for a closer look

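In 19 of 164 groups of mice examined, 1 mouse stood apart from the rest of its group by Dixon's test, which chance flags in about 1 in 20 groups. The 164 share mice, so the results are not independent.

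In FF CD, mouse 4 was low for Cox5a (107 RPKM, the nearest mouse at 167), Sdhc (71.0, nearest 96.5) and Uqcrfs1 (72.8, nearest 119), and high for Ndufa4l2 (1.23, nearest 0.665). FF CD mouse 2 was high for Cox7a1 (2.29 RPKM, nearest 1.52).

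In LKO CD, mouse 3 was low in the mean log2 level of all members (5.76, nearest 6.01). The same mouse was low for Atp5a1 (250.2 RPKM), Atp5g2 (61.1), Cox5a (118), Cox6a1 (203), Ndufa4 (309), Sdhc (79.3), Uqcr10 (76.9) and Uqcrq (55.8).

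In FF HFD, mouse 3 was low for Atp5a1 (244 RPKM, nearest 319.6), Atp5b (323, nearest 453) and Cox5a (87.0, nearest 159), and mouse 5 was high for Ndufa5 (75.1, nearest 64.1). In LKO HFD, mouse 5 was high for Ndufb4 (97.5 RPKM, nearest 85.9). Cox5a thus stood apart in 3 of the 4 groups.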

How the results depend on the processing

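With small differences and 4 or 5 mice per group, the counts of called genes depended on the setting, and the direction of the medians did so less. For HFD in FF mice, where 2 members were called, the count was 8 with libraries scaled to the same sum, 4 after quantile normalization, 1 without the low-value filter or after centring on the median gene, and 0 with a fold above 1.5, with only the groups compared, or with mice centred on their respiratory chain mean, a setting added after seeing the data. Over all genes, 2287 were called in the main fit. The settings listed gave 3429, 2621, 2559, 2394, 732, 2026 and 1398, in the same order. For HFD in LKO mice, where 2 members were called, the count of members was 14 after centring on the median gene, 11 with the length trend removed, 5 without a variance trend, 1 without the filter, and 0 with a fold above 1.5, with only the groups compared or with the chain mean centred. Over all genes, 449 were called in the main fit. The settings listed gave 276, 352, 451, 172, 141, 69 and 3809, in the same order. For LKO against FF on HFD, where 0 members were called, the count of members was 2 with the same sum, after median centring or with the length trend removed, and 1 without the filter or the variance trend. Over all genes, 466 were called in the main fit and 610, 621, 711, 356 and 479 in these settings. For the interaction, also with 0 members called, the count of members was 7 with the same sum, 4 after quantile normalization, 2 with the length trend removed, and 1 after median centring or without the variance trend. Over all genes, 329 were called in the main fit and 554, 488, 498, 421 and 341 in these settings. On CD the count of members called was 0 under every setting. Centring on the chain mean sets the members' median close to 0 by construction (0.003508 for HFD in LKO mice and -0.005419 for the interaction) and so tests nothing about it. The causes of the other differences were not tested.

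Leaving out each mouse in turn gave 0 to 3 called members for HFD in FF mice, 0 to 5 for HFD in LKO mice, 0 to 1 for genotype on HFD (1 without FF HFD mouse 5 or LKO HFD mouse 1) and 0 to 1 for the interaction (1 without LKO CD mouse 3, FF HFD mouse 5 or LKO HFD mouse 1), with medians of -0.02 to 0.12, -0.27 to -0.15, -0.22 to -0.07 and -0.32 to -0.18, and of 0.05 to 0.18 for genotype on CD. Ndufa5 was called in 19 of 29 alternative settings, Ndufaf4 in 17, Ndufa10 in 12 and Ndufa6 in 10.

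With the replicate number as a replicate block, 1 member was called for HFD in FF mice (median -0.00413), 9 for HFD in LKO mice (-0.22), 0 for genotype on CD (0.11), 0 for genotype on HFD (-0.13) and 1 for the interaction (-0.24). Over all tested genes, 2553, 727, 28, 444 and 360 were called in the same order. Same-numbered mice of different groups deviated together (r above 0.1) in 10 of 25 pairs, with r from -0.17 to 0.33. Mice with different numbers were not compared, so whether the numbers pair the mice was not tested.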
